A study of Mus musculus with 8 samples.

Results

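The S100 proteins are small calcium sensors, each with a pair of EF-hand loops, and 8 of their genes on mouse chromosome 3 were followed here through control cells and cells labelled KO for *Lnc-Nr6a1*, with and without TGF-β. The members were chosen by gene symbol as the S100 genes of chromosome 3 named *S100a1*, *S100a4*, *S100a6*, *S100a10*, *S100a11*, *S100a13*, *S100a14* and *S100a16*, which are 8 of the 37310 genes in the deposited count table, and all 8 passed the filter on low counts that left 13028 genes to be tested. The cells were NMuMG, an established line of mouse mammary epithelium, and RNA of 4 groups was sequenced in 2 libraries each. These were control cells, control cells treated with 10 ng/ml TGF-β1 for 2 h, cells labelled KO, and KO cells given the same TGF-β1 treatment. All cells grew in medium with serum and insulin. The KO cells had been edited with CRISPR-Cas9 in the promoter and start of the noncoding gene *Lnc-Nr6a1* and grown from single sorted cells, and the labels do not say how many clones the libraries stand for.

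S100 proteins mostly form dimers, bind calcium and then expose a surface that grips a partner protein, such as an annexin at the inner face of the membrane, a non-muscle myosin or p53. Some leave the cell and act on receptors such as RAGE, the product of *Ager*. Most of the genes lie side by side in the epidermal differentiation complex, which also holds the genes of the cornified envelope, and several are abundant in epithelia and rise in cells that migrate or leave an epithelium.

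The libraries held between 4297832 and 13574397 counts, so that 3 counts, the smallest level taken as detectable, corresponded to 0.238 to 0.661 CPM (counts scaled with TMM factors to a common library size), a floor that covers counting error only. *Lnc-Nr6a1*, annotated as *Gm13507*, had 3 and 14 counts for control cells, 25 and 35 in control cells with TGF-β, 11 and 7 in the untreated libraries labelled KO, and 0 and 0 in the treated libraries labelled KO. The untreated libraries therefore cannot be told apart by the targeted gene, and directions between genotypes refer to the labels. Of 12 epithelial marker genes 6 were tested, with a summed level of 5873 to 10939.7 CPM in a library. Most of this came from *Krt8* (2126 to 4345 CPM) and *Krt18* (2441 to 5797 CPM). *Cldn3*, *Cldn7* and *Esrp1* had no counts, and *Epcam*, *Ovol1*, *Grhl2* and *Krt7* had at most 2, 2, 6 and 14 counts in a library. The summed markers of fibroblasts, leukocytes, endothelium and adipocytes reached at most 4.85, 5.71, 0.847 and 0.22 CPM. In RNA from a whole culture, less RNA per cell and fewer cells of a kind cannot be told apart.

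Positions are those of GENCODE vM1 on NCBIM37 (mm9), the annotation whose identifiers the count table carries. The members lie in 2 blocks. The first, chr3:90314956-90418336, spans 103.381 kb and holds 6 members, with *S100a1* on the minus strand and then *S100a13*, *S100a14*, *S100a16*, *S100a4* and *S100a6* on the plus strand. The second, chr3:93324410-93368565, holds *S100a11* and *S100a10* on the plus strand, 2906.074 kb further on. The genes are compact, with 3 to 6 exons after merging transcripts and 511 to 1617 exonic bases. No exon of a member overlapped an exon of another annotated gene. Only *S100a11* has near copies elsewhere in the genome (at least 85% identity over at least 80% of its transcript), of which 6 were found, the closest at 98.6% identity. The annotated copies *Gm7665* and *Gm12854* together held 427 to 1506 counts in a library, or 50.4 to 59.9% of the sum of *S100a11* and both copies, so that the level of *S100a11* is uncertain.

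*S100a1* and *S100a13* are transcribed away from each other, and 42 bases separate the ends of the 2 genes in this annotation. In the RefSeq sequence of GRCm38.p6 their starts are 104 bases apart (chr3:90514331-90514434), with a GC content of 58.7%. This shared interval is shown because the levels of its 2 genes were nearly equal, read on the plus strand.
S100a1-S100a13 interval: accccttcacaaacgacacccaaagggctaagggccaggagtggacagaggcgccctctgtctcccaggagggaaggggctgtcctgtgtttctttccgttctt

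RefSeq start windows, the 250 bases before a start on the gene's own strand in GRCm38.p6, were matched for 6 of the 8 members. *S100a10* and *S100a14* were not matched. The windows of the most abundant members and of *S100a16*, which was called in 2 comparisons, are shown with matches to 5 short motifs in capitals. Those searched, on both strands, were TATAAA (in 12.4% of 32851 windows of this length), TGANTCA (AP-1, 6.75%), GGGCGG (GC box, 32.7%), CAGACA (SMAD element, 17.1%) and CACGTG (E-box, 6.02%). A match describes the letters only. *S100a4* (chr3:90603520-90603769) held a TATA box, *S100a6* (chr3:90612644-90612893) none of the motifs, the first start of *S100a16* (chr3:90537004-90537253) none, and its other start (chr3:90540896-90541145) an AP-1 motif and a GC box.
S100a4: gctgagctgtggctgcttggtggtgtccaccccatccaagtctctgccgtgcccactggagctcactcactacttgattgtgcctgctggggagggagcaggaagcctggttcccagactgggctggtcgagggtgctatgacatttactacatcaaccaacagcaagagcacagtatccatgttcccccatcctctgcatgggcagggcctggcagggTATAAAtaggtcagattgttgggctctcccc
S100a6: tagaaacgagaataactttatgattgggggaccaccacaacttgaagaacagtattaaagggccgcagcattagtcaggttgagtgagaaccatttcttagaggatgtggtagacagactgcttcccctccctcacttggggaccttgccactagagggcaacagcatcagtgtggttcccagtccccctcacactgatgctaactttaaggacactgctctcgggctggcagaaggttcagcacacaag
S100a16, first start: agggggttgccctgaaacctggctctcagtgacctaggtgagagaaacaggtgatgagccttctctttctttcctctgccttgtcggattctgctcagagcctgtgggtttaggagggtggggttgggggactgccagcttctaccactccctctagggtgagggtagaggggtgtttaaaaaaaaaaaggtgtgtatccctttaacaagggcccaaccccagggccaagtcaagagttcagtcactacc
S100a16, other start: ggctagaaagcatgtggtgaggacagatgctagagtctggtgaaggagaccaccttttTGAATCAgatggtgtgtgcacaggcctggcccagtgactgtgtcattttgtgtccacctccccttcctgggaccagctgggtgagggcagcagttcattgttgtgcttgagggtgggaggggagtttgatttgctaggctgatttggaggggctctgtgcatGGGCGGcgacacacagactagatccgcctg

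*S100a11* (chr3:93520246-93520495) had the most matches, 6, with 2 AP-1 motifs, 3 GC boxes and an E-box, and is shown for contrast with its neighbours in the family. The windows of *S100a1* and *S100a13* held none of the 5 motifs.
S100a11: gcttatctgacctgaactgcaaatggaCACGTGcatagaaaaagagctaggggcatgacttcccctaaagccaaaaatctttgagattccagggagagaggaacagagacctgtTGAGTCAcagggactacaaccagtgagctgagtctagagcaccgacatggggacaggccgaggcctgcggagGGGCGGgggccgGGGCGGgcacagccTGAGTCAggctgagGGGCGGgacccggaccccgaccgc

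The 8 genes together took 0.536 to 0.824% of the counts of a library, and *S100a6* alone 73.8 to 81.4% of that. For levels between genes, CPM was divided by exonic length in kb (RPKM) and averaged over the 8 libraries. *S100a6*, which encodes calcyclin, stood at 6669 ± 1368 RPKM (SD, n = 8), the highest level of the 11424 protein-coding genes tested. Its counts came to 32.1 to 104.6 per exonic base in a library, more than single-end reads kept once per start position and strand could give. The study's methods name single-end reads and removal of duplicates, but methods and labels differ on read layout, and for paired-end reads this limit would not apply. *S100a4*, the metastasis-associated protein that binds non-muscle myosin, followed at 1268 ± 70.8 RPKM and ranked 16. Its 5.83 to 15.3 counts per exonic base in a library also exceeded the limit for single-end reads. So did the highest values of *S100a10* (4.59) and *S100a11* (2.44). *S100a10*, the partner of annexin A2 that has lost calcium binding, stood at 299.7 ± 69.3 RPKM, and *S100a11*, a partner of annexin A1, at 186 ± 22.9. *S100a1*, best known from heart and skeletal muscle, reached 95.4 ± 12.2 RPKM and *S100a13*, which takes part in the release of FGF1 and interleukin-1α, 87.9 ± 10.3. *S100a16*, a widely expressed member, was at 47.1 ± 12.4 RPKM and *S100a14*, an epithelial member, at 2.78 ± 1.05, where it ranked 9123. The ranges of *S100a1* (84.5 to 121.7 RPKM) and *S100a13* (71.8 to 100.5) overlapped. Every other pair of neighbours in this order kept separate ranges over the 8 libraries. The place of *S100a11* below *S100a10* rests on its own counts and was not tested with those of its near copies added.

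**Figure D1:**
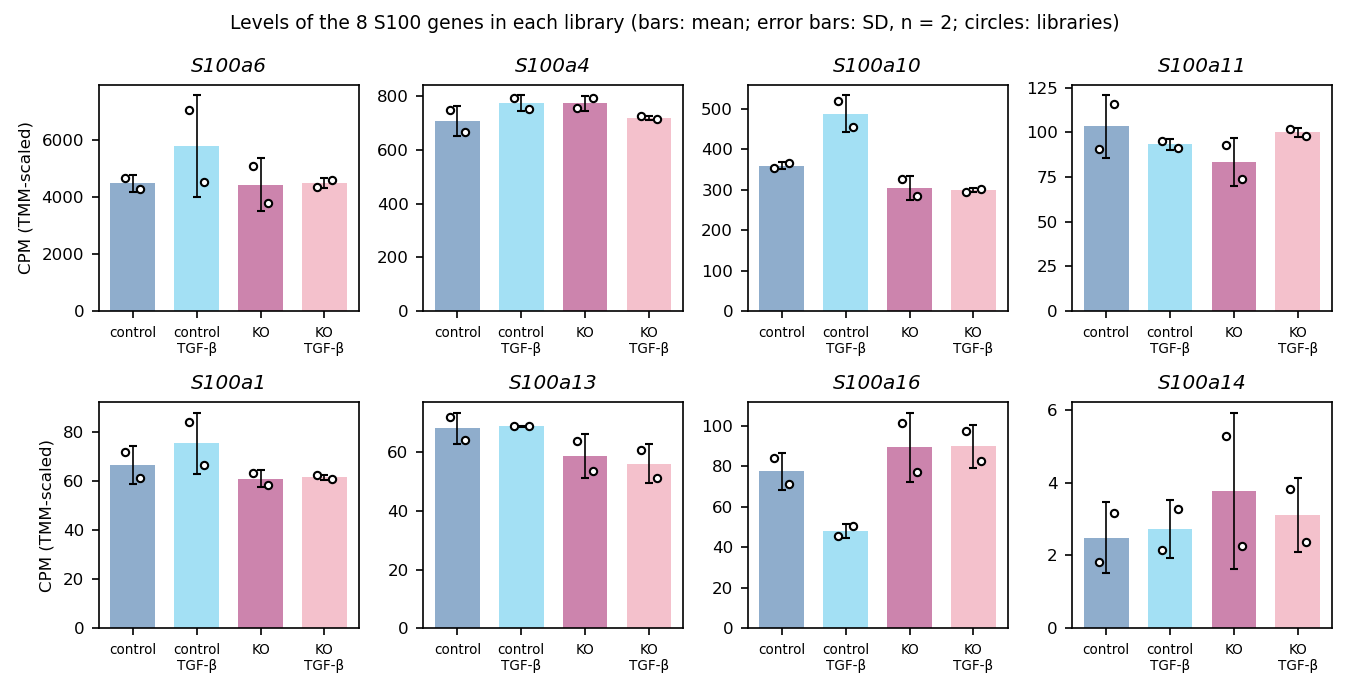
Level of each S100 gene in CPM (linear axis from 0, its own for each gene) in the 4 groups; bars are means, error bars SD (n = 2) and circles libraries. *S100a16* is lowest and *S100a10* highest in both TGF-β-treated control libraries.

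*S100a16* showed the clearest pattern over the groups. It stood in control cells at 83.8 and 71.0 CPM without TGF-β and at 45.5 and 50.6 CPM with TGF-β. The libraries labelled KO held 101 and 77.1 CPM without and 97.2 and 82.3 CPM with TGF-β. Both treated control libraries were thus below all 6 others.

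*S100a10* had the mirror image. Its level was 354 and 365.5 CPM for control cells, 521 and 456 CPM in control cells with TGF-β, 326 and 284 CPM in the untreated libraries labelled KO, and 295 and 303 CPM in the treated ones. The treated control libraries were above all 6 others, and the other groups lay within 284 to 365.5 CPM.

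*S100a6* varied mostly within groups. Control libraries had 4681 and 4274 CPM, those with TGF-β 7047 and 4533, the libraries labelled KO 5082 and 3777, and those with TGF-β 4356 and 4608.5. The high mean of treated control cells came from replicate 1, whose value stood apart, while replicate 2 lay within the range of the other groups.

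*S100a4* was the steadiest member. It had 747 and 668 CPM for control cells, 795 and 753.5 with TGF-β, 755 and 792 in the libraries labelled KO, and 726 and 715.5 in those with TGF-β. Its 4 group means lay between 708 and 774 CPM.

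*S100a11* had 90.9 and 116 CPM for control cells, 95.4 and 91.2 with TGF-β, 92.8 and 73.9 in the libraries labelled KO and 102 and 98.2 in those with TGF-β. The ranges of the first 3 of these groups overlapped. Its near copies had levels of the same order, at 49.2 to 72.7 CPM for *Gm7665* and 39.0 to 64.7 CPM for *Gm12854*.

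*S100a1* had 72.1 and 61.3 CPM for control cells, 84.4 and 66.8 with TGF-β, 63.5 and 58.6 in the libraries labelled KO and 62.4 and 60.8 in those with TGF-β. For *S100a13* the values were 71.9 and 64.2, 68.7 and 68.9, 63.9 and 53.4, and 60.6 and 51.3 CPM in the same order. Counts of the 2 divergent genes stayed close in every library, the ratio of *S100a1* to *S100a13* running from 0.954 to 1.23. The exonic lengths used are also close, at 694 and 715 bases. Over the 8 libraries the log2 CPM of *S100a1* and *S100a13* had a Pearson's r of 0.694. This was below that of *S100a1* with *S100a6* (0.883) and with *S100a10* (0.821).

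*S100a14* had the lowest counts of the members. They were 15 and 26 for control cells, 23 and 31 with TGF-β, 24 and 17 in the libraries labelled KO, and 47 and 30 in those with TGF-β. At these counts its levels, 1.81 to 5.29 CPM, overlapped between all groups and could not be compared with the precision of the other members.

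The untreated libraries labelled KO were compared with untreated control cells first, though the targeted gene did not separate them. No member was called, against 1.83% of all genes tested, where a gene was called at an adjusted p under 0.05 with a log2 fold change beyond 0.5 in either direction (edgeR quasi-likelihood test, Benjamini-Hochberg adjustment over the 13028 genes). None had an unadjusted p below 0.05 either, against 14.9% of genes, and DESeq2 and limma-voom called none. The fitted log2 fold changes, libraries labelled KO minus control, ran from -0.31 for *S100a11* (SE 0.17) to 0.55 for *S100a14* (SE 0.56), with 5 of 8 below 0. *S100a6* and *S100a4* differed by -0.02 (SE 0.21) and 0.13 (SE 0.12). Libraries of the 2 groups did not overlap for *S100a4*, *S100a10* and *S100a13*, 3 of 8 members, against 51.9% of all genes.

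After TGF-β, 2 of the 8 members were called between genotypes, against 15.0% of all genes. *S100a16* was 1.87-fold higher in the libraries labelled KO (log2 fold change 0.90, SE 0.18, edgeR adjusted p 0.0128) and *S100a10* was 1.63-fold lower (-0.71, SE 0.14, adjusted p 0.0108). *S100a1* and *S100a13* both had -0.30 (SE 0.16 each, edgeR adjusted p 0.249 and 0.235), *S100a6* -0.37 (SE 0.21), *S100a4* -0.10 (SE 0.12), *S100a11* 0.10 (SE 0.17) and *S100a14* 0.20 (SE 0.52), none of which passed. Unadjusted p was below 0.05 for the same 2 members, against 31.4% of all genes, and libraries did not overlap for 6 of 8, against 55.8%. Both calls were lost when only the 4 libraries of the comparison were fitted (edgeR adjusted p 0.0573 for *S100a16* and 0.0698 for *S100a10*). Without replicate 1 of the treated libraries labelled KO neither was called (edgeR adjusted p 0.054 for *S100a16* and 0.0518 for *S100a10*), and without replicate 2 *S100a16* alone was (edgeR adjusted p 0.0339, with 0.0663 for *S100a10*).

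In control cells, *S100a16* fell 1.61-fold with TGF-β for 2 h (log2 fold change -0.69, SE 0.18, edgeR adjusted p 0.0459), 1 call among 8 members against 9.16% of all genes. Unadjusted p fell below 0.05 for *S100a16* and *S100a10*, against 26.8% of genes, and libraries did not overlap for *S100a4*, *S100a10* and *S100a16*, 3 of 8 against 53.7%. The value for *S100a10* was 0.44 (SE 0.14, edgeR adjusted p 0.0728), short of both thresholds. *S100a6* had 0.37 (SE 0.21, edgeR adjusted p 0.29), and without replicate 1 of the treated control cells it had 0.01. The other 5 lay between -0.15 for *S100a11* and 0.18 for *S100a1*. The call of *S100a16* was narrow. It was lost without either untreated control library (edgeR adjusted p 0.274 and 0.111 without replicates 1 and 2), without either treated control library (0.0961 and 0.0633) and without either untreated library labelled KO (0.0619 and 0.0621), with log2 fold changes between -0.80 and -0.56. It was also lost with limma-voom (adjusted p 0.0506) and when only the 4 libraries of the comparison were fitted (edgeR adjusted p 0.0901).

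In the libraries labelled KO, TGF-β left no member called, against 6.82% of all genes. No member reached an unadjusted p below 0.05, against 22.7% of genes, libraries did not overlap for 2 (*S100a4* and *S100a11*) against 56.6%, and neither DESeq2 nor limma-voom called any. Log2 fold changes ran from -0.23 for *S100a14* (SE 0.53) to 0.26 for *S100a11* (SE 0.17). For *S100a16* and *S100a10* they were 0.01 (SE 0.18) and -0.03 (SE 0.14).

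The difference between the TGF-β responses of the genotypes was tested as an interaction, which called no member and 0.0% of all genes at an adjusted p below 0.05. *S100a16* (0.70 on the log2 scale, SE 0.26, unadjusted p 0.0215, edgeR adjusted p 0.501) and *S100a10* (-0.47, SE 0.19, unadjusted p 0.0352, edgeR adjusted p 0.538) had unadjusted p below 0.05, as did 8.7% of genes. The response of neither gene was therefore shown to differ between genotypes. The comparison between genotypes after TGF-β and that between treatments in control cells share the treated control libraries, so that their values for *S100a16* and *S100a10* are not independent.

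**Figure D2:**
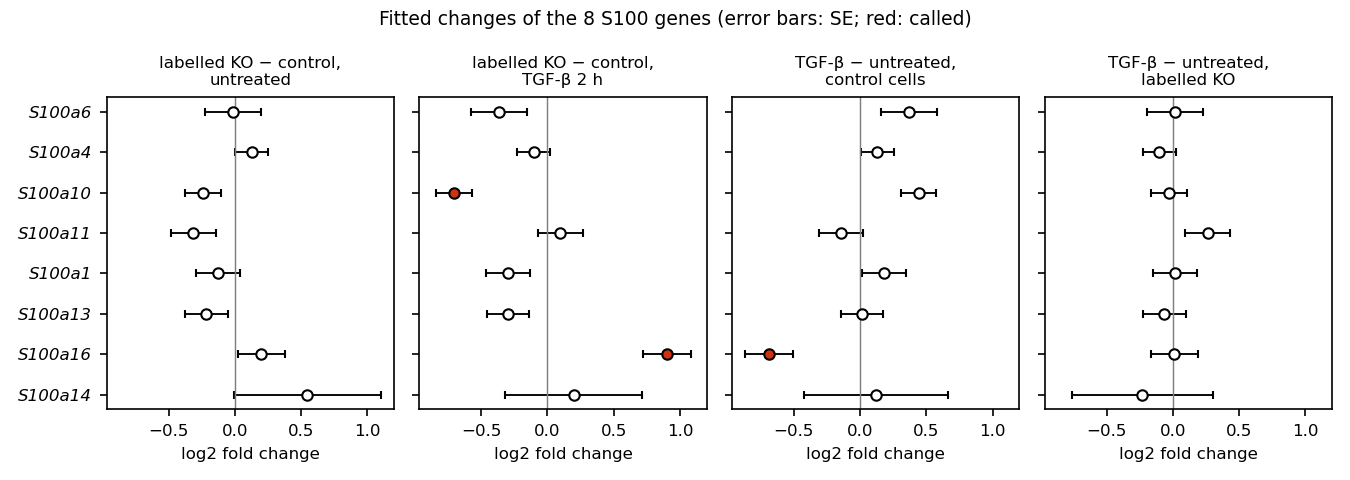
Log2 fold changes (horizontal axis) of the 8 S100 genes in the 4 comparisons; error bars are SE of the edgeR fit and red points were called. Called were *S100a10* (-0.71) and *S100a16* (0.90) between genotypes after TGF-β and *S100a16* (-0.69) with TGF-β in control cells.

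All members lie on a chromosome whose genes were lower in the libraries labelled KO. The median log2 fold change of the 641 genes tested on chromosome 3 was -0.35 without and -0.34 with TGF-β, against 0.02 and -0.01 over all genes tested, and 80.7 and 73.6% of them were below 0. The members' medians were -0.07 and -0.20. Among the 33 other tested genes from 500 kb before the first to 500 kb after the last member, the medians were -0.18 and -0.06. *S100a10* after TGF-β (-0.71) was lower than the median of its chromosome and *S100a16* (0.90) was higher. The part of the chromosome-wide difference in either value was not tested.

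Beyond the 6 members, the first block has *2500003M10Rik* before it and *S100a7a* after it. *S100a7a* is the mouse relative of psoriasin, and the adjacent *S100a8* encodes a calprotectin subunit of myeloid cells and stressed epithelium. Of the S100 genes tested, *S100a7a* and *S100a8* differed most in the libraries labelled KO. Counts of *S100a7a* were 44 and 23 for control cells, 47 and 27 with TGF-β, 2 and 1 in the libraries labelled KO and 6 and 7 in those with TGF-β. *S100a8* had 91 and 46, 57 and 26, 1 and 3, and 5 and 5 counts in the same order. Both genes were higher in every control library than in any library labelled KO.

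Over the summed untreated counts, the ratio of control to KO-labelled levels was 16.3 for *S100a7a* (exact 95% interval 5.36 to 81.2) and 25.1 for *S100a8* (9.57 to 93.3), and with TGF-β it was 7.03 (3.87 to 13.8) and 10.3 (5.3 to 22.2). These intervals cover counting error only. The fitted untreated log2 fold change of *S100a7a*, -3.93, was -4.81 without replicate 1 and -3.17 without replicate 2 of the libraries labelled KO. Both were called lower without TGF-β (edgeR adjusted p 0.0322 and 0.0121) and with it (0.014 and 0.00816). They passed the filter on low counts through the control libraries, where they were high. These calls were therefore not taken as support for a difference. No untreated call stood with limma-voom (adjusted p 0.086 and 0.0656). The untreated calls were also lost without either library labelled KO or without control replicate 1, and that of *S100a7a* without control replicate 2 as well (edgeR adjusted p 0.0868 to 0.276 over these fits). With TGF-β, *S100a7a* was lost without either treated library labelled KO (edgeR adjusted p 0.0636 and 0.085) and *S100a8* without replicate 2 of them (0.057). The 7 leukocyte markers, of which *Cd3e* had no counts, summed to 3.38 to 3.42 CPM in untreated control libraries and 4.41 to 5.71 in those labelled KO, and with TGF-β to 3.56 to 4.76 and 2.3 to 2.53 CPM. Without TGF-β the summed markers were thus higher where *S100a8* was lower, with TGF-β both were lower, and their part in the result was not tested.

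**Figure D3:**
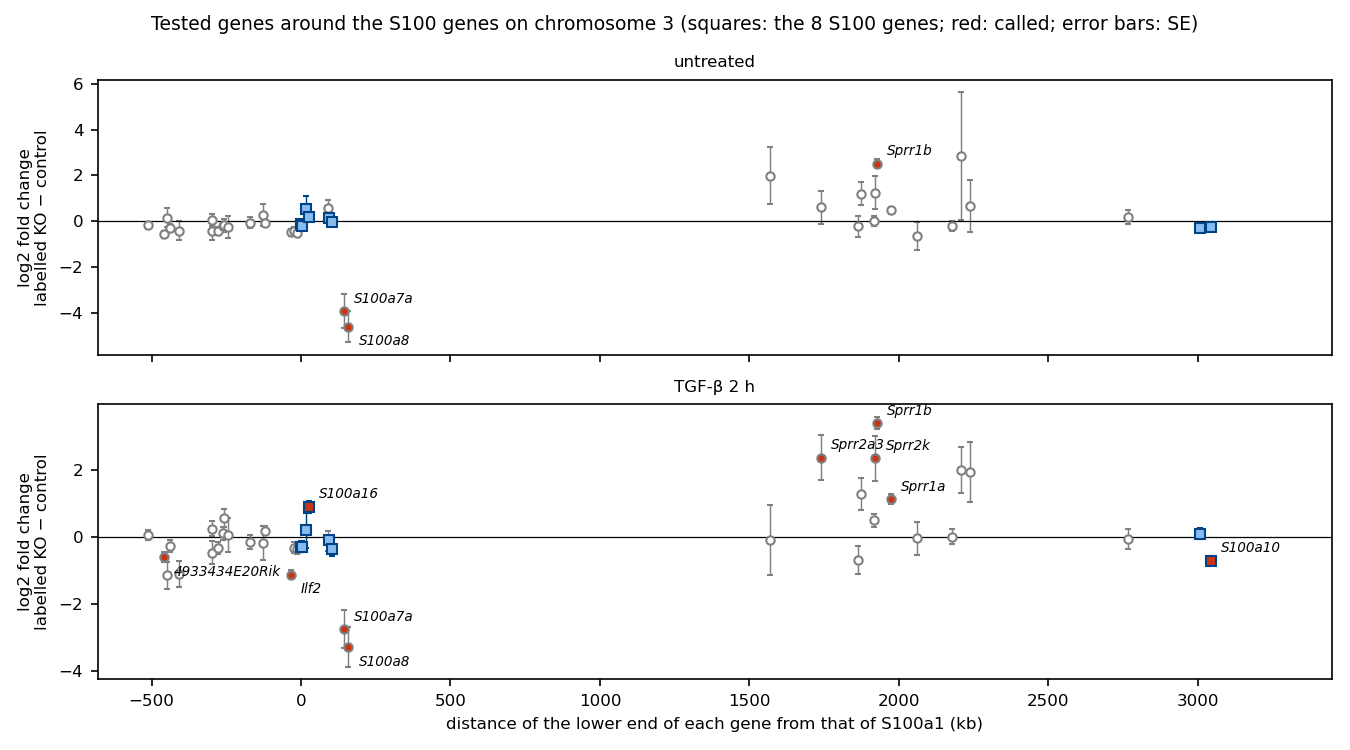
Log2 fold change, libraries labelled KO minus control, of the tested genes around the members, without (top) and with TGF-β (bottom), against distance in kb from *S100a1*; squares are the 8 members, red points were called, error bars are SE. *S100a7a* and *S100a8* lie far below 0 beside members that do not, and *Sprr1b*, a cornified envelope gene between the blocks, lies above 0.

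A list of the remaining S100 genes, fused-type relatives and *S100pbp*, which encodes an S100P-binding protein, had 16 genes in the annotation. *S100a3*, *S100a7a*, *S100a8*, *S100g* and *S100pbp* were tested, and *S100a7a* and *S100a8* were called between genotypes, against 1.83% of all genes without and 15.0% with TGF-β. Both reached the filter on low counts through the control libraries, where they were high, so their number among the tested genes is no support for a difference. *S100a3*, which lies within the first block beside *S100a4*, had 39 to 105 counts and log2 fold changes of 0.60 (SE 0.31) without and -0.12 (SE 0.30) with TGF-β. *S100g* encodes a calcium-buffering protein of intestine and kidney and lies on the X chromosome. It had 25.8 and 22.3 CPM in control and 11.9 and 14 CPM in untreated KO-labelled libraries (-0.89, SE 0.22, edgeR adjusted p 0.0913). In 6 of 9 alternative fits it stayed uncalled, among them DESeq2 (adjusted p 0.0637) and limma-voom (0.138). It passed the threshold in the others, such as the fit of only the untreated libraries (edgeR adjusted p 0.0243). With TGF-β it had 16.6 and 18.5 CPM in control and 15.5 and 12.4 CPM in KO-labelled libraries. *S100a9*, the other calprotectin subunit, had 7 and 4 counts in control cells, 2 and 0 with TGF-β and no counts in any library labelled KO, too few to be tested.

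Annexins, membrane-binding partners of several S100 proteins, and *Ahnak*, the scaffold of the S100A10-annexin A2 complex, gave 13 tested genes. After TGF-β, 4 were higher and 2 lower in the libraries labelled KO, 6 of 13 against 15.0% of all genes, with a median log2 fold change of 0.05 against -0.01 over all genes. *Anxa2* was among the higher ones (0.67, SE 0.13, edgeR adjusted p 0.0114), as was *Ahnak* (0.63, SE 0.16, adjusted p 0.028), while *S100a10* itself was lower. *Ahnak* kept its call in 3 of 8 fits that left out 1 library, those without 1 of the untreated control libraries or without replicate 2 of treated control cells (edgeR adjusted p up to 0.153 in the others), and lost it with only the 4 libraries compared (edgeR adjusted p 0.0937). *Anxa2* had 1810.1 and 2126 CPM in treated control cells and 3062 and 3194 CPM in treated libraries labelled KO. *Anxa8* (0.71) was also higher and *Anxa6* (-0.76) lower. The call of *Anxa2* was lost without replicate 2 of the treated libraries labelled KO (edgeR adjusted p 0.0844), and that of *Anxa6* without replicate 1 of either treated group (edgeR adjusted p up to 0.116). *Anxa1*, the partner of S100A11, had -0.22 (SE 0.15).

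Without TGF-β, *Anxa8* alone was called between genotypes (0.68, SE 0.13, edgeR adjusted p 0.0326), 1 of 13 against 1.83% of all genes, and its call was lost without any 1 of the untreated libraries or of the treated libraries labelled KO (edgeR adjusted p up to 0.281). With TGF-β in control cells *Anxa3* (0.62) and *Anxa5* (0.55) rose and *Anxa11* fell by 0.70, 3 of 13 against 9.16% of all genes, while in the libraries labelled KO none of the 13 was called by edgeR, against 6.82% of all genes, 4 had an unadjusted p below 0.05, against 22.7% of all genes, and DESeq2 called 0. The calls of *Anxa3*, *Anxa5* and *Anxa11* stood in 3, 2 and 2 of 8 fits that left out 1 library, and each was lost without either untreated control library. Leaving out each library in turn gave 0 to 2 calls between untreated genotypes, 2 to 4 after TGF-β and 0 to 3 with TGF-β for control cells, and a fit of the 4 libraries of the comparison alone gave 2, 0 and 0.

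Cytoplasmic and nuclear partners gave 14 tested genes of 19. After TGF-β *Myh9*, the myosin heavy chain that S100A4 binds, was higher in the libraries labelled KO (0.75, SE 0.16, edgeR adjusted p 0.0153), 1 of 2 higher genes of the list. *Cacybp*, the calcyclin-binding protein named for S100A6, was 1 of 3 lower genes (-0.78, SE 0.17, edgeR adjusted p 0.0156), the others being *Hltf*, a chromatin remodeller (-0.82), and *Myh10*, another non-muscle myosin heavy chain. *Myh10* had 28 and 27 counts in treated control cells and 1 and 3 in treated libraries labelled KO, and its call was lost without either of the latter (edgeR adjusted p up to 0.101). Without replicate 2 of the treated libraries labelled KO the calls of *Myh9*, *Cacybp* and *Hltf* were lost (edgeR adjusted p 0.126, 0.103 and 0.188), and *Cacybp* and *Hltf* were also lost without replicate 2 of treated control cells. *Hltf* kept its call in 4 of 8 such fits. *Myh10* passed the filter on low counts through the control libraries, and the other 4 calls fell among 13 genes, against 15.0% of all genes called. *Iqgap1*, a cytoskeletal scaffold, rose with TGF-β in control (0.68) and in KO-labelled cells (0.83), and *Ppfibp1*, the liprin that S100A4 binds, rose in both (0.69 and 0.53), 2 of 14 genes against 9.16 and 6.82% of all genes. *Iqgap1* kept its call in 6 of 8 fits without 1 library in control and in 5 of 8 in KO-labelled cells, and *Ppfibp1* in 6 and 2 of 8 (edgeR adjusted p up to 0.226). Leaving out 1 library gave 0 to 6 calls between treated genotypes, 0 to 4 with TGF-β in control cells and 0 to 3 in the libraries labelled KO, and a fit of the 4 libraries compared gave 1 call between treated genotypes and 0 with TGF-β in control cells.

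Among 5 tested genes for receptors and secreted partners, *Plau* rose with TGF-β in both genotypes, 1 of 5 against 9.16 and 6.82% of all genes. It encodes urokinase, which makes plasmin from the plasminogen that S100A10 helps to hold at the cell surface. *Plau* had 13.6 and 17.1 CPM for control cells, 75.9 and 49.7 with TGF-β, 8.82 and 15.6 in the libraries labelled KO and 41.2 and 77.9 in those with TGF-β. The log2 fold changes were 2.03 (SE 0.36, edgeR adjusted p 0.011) and 2.26 (SE 0.37, adjusted p 0.00835). All 4 treated libraries lay above all 4 untreated ones. The call in control cells was lost without replicate 1 or 2 of the untreated control cells (edgeR adjusted p 0.131 and 0.0666) and that in the KO-labelled cells without replicate 1 or 2 of their untreated libraries (0.0954 and 0.0507). *Ager*, the gene of RAGE, had 0 to 8 counts in a library and was not tested.

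Other EF-hand proteins were compared as calcium binders outside the family. With TGF-β in control cells 7 of 16 tested genes rose and none fell, against 9.16% of all genes called, with a median log2 fold change of 0.50 against 0.12 for the 8 members and 0.02 over all genes. Among them were *Rcn2* (0.80) and *Calu* (0.55), which encode proteins of the secretory pathway, and *Capn2* (0.60), which encodes a calpain. All 3 calls were lost without either untreated control library. In the libraries labelled KO *Capn2* alone was called (0.77), 1 of 16 against 6.82% of all genes, though all 16 lay above 0, and no gene of the list was called for the interaction. Between genotypes after TGF-β *Capn1* (0.91) and *Efhd2* (1.22) were higher, 2 of 16 against 15.0% of all genes. *Efhd2* kept its call in 2 of 8 fits that left out 1 library, those without replicate 1 of either treated group, with values from 0.86 to 1.67 and an edgeR adjusted p of up to 0.221, and lost it with only the 4 libraries compared. When 1 library was left out, the 7 calls in control cells became 0 to 5 and the 1 call in KO-labelled cells 0 to 3, and with only the control libraries fitted the former became 0.

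**Figure D4:**
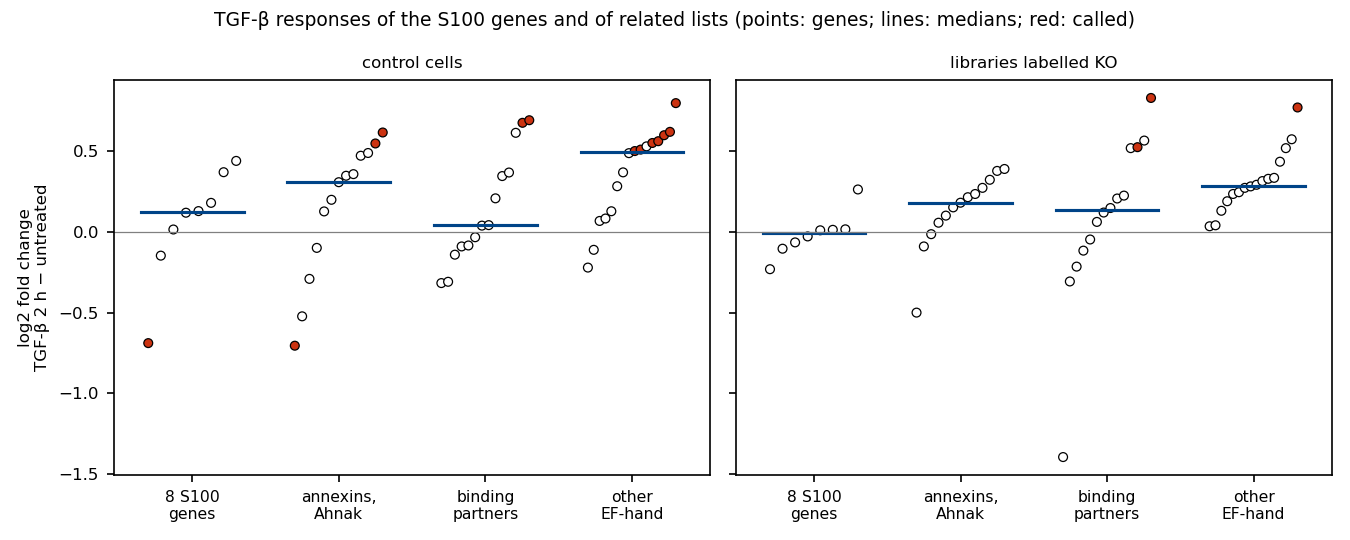
Log2 fold change with TGF-β (vertical axis) in control cells (left) and in libraries labelled KO (right); points are genes, red points were called, lines are medians. Red points in control cells were 1 of 8 S100 genes and 7 of 16 other EF-hand genes.

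As a description over the 8 libraries, which differ in depth, the log2 CPM of *S100a10* and *S100a16* ran in opposite directions (Pearson's r -0.883), whereas *S100a1* and *S100a6* ran together (r 0.883). Of all genes tested, the most similar profiles were *Eif1b* for *S100a1* (r 0.968), *1700088E04Rik* for *S100a4* (0.956), *Gm15453* for *S100a6* (0.978), *Rpl9-ps6* for *S100a10* (0.998), *Snhg3* for *S100a11* (0.947), *Ncald* for *S100a13* (0.958), *Gm14538* for *S100a14* (0.948) and *Abcd4* for *S100a16* (0.979). None of these 8 genes is on chromosome 3, and each is the highest r of a search over 13028 genes.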

How the data were processed

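Libraries were assigned to 4 groups by the sample labels. The authors deposited whole-number counts per gene, without normalization, in 1 table of 8 libraries. The study's methods name subjunc for alignment to mm10 and mm9, samtools rmdup and DESeq2, and the submitters' processing notes name HISAT2, limma and mm10. Counting tool and strand setting are not given in the sources used here. The table's identifiers and their order match GENCODE vM1 (mm9). Methods and labels also differ on RNA extraction, library kit, sequencer and read layout. Where reads are kept once per start position, counts of short, abundant mRNAs are capped. Those of *S100a6* and *S100a4* exceed such a cap for single-end reads in every library, and those of *S100a10* and *S100a11* in some.

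In R 4.3.3, counts passing filterByExpr (13028 genes) were fitted over all 8 libraries with glmQLFit of edgeR 4.0.16 (TMM, no block) and tested with glmQLFTest. P-values were adjusted by the Benjamini-Hochberg method over all genes tested, and genes were called at an adjusted p under 0.05 with a log2 fold change beyond 0.5 either way (interaction: adjusted p alone). SE is the absolute log2 fold change divided by the square root of F. The biological coefficient of variation was 0.180. P-values measure the spread between the 2 libraries of a group, which the study's methods call biological replicates and the labels do not tie to separate cultures. Alternatives used DESeq2 1.42.0, limma-voom (limma 3.58.1), RLE factors, TMM without chromosomes 3 and 7, other filters, a replicate block, only the libraries compared, each library left out and, chosen after seeing the data, exchanged block numbers and *S100a11* summed with its near copies. Named genes were all members, the nearest tested neighbours of the first block and the most similar profile of each member. Of each list, up to 4 called genes were named in a comparison (smallest p first). *S100a3*, *S100a9*, *S100g*, *Anxa1*, *Ager* and the genes labelled in the plot around the members were chosen after their values were seen. Members and lists were chosen with earlier results of these data known.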

Additional observations from a re-analysis of the deposited data

How the results depend on the processing

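No S100 member was called between untreated genotypes, with TGF-β in the libraries labelled KO, or for the interaction, under any alternative run. Between treated genotypes the 2 calls became 0 when only the 4 libraries compared were fitted and 0 to 2 when a library was left out. With TGF-β in control cells the 1 call became 0 with the replicate block, with limma-voom and with only the 4 libraries compared, and 0 to 1 when a library was left out. The log2 fold changes of the members called kept their sign in every fit, and the causes of lost calls were not tested. Summing *S100a11* with its near copies gave -0.34, 0.06, -0.08, 0.32 and 0.40 for the 5 comparisons, with no call. By the longest transcript the levels were 1494 RPKM for *S100a4*, 530.3 for *S100a10* and 67.5 for *S100a16*, in an unchanged order. Here *S100a11* was taken without its near copies. The median of the 633 genes of chromosome 3 other than the members, -0.35 untreated and -0.34 treated, was -0.38 untreated with TMM factors computed without chromosomes 3 and 7 and -0.22 treated with no filter, and -0.37 to -0.32 and -0.36 to -0.30 when a library was left out. Leaving out 1 library turned the sign of uncalled log2 fold changes. Between untreated genotypes these ranged from -0.245 to 0.183 for *S100a6*, -0.139 to 1.083 for *S100a14* and -0.007 to 0.389 for *S100a16*, and between treated genotypes from -0.179 to 0.537 for *S100a14*. With TGF-β in control cells the ranges were -0.003 to 0.318 for *S100a1*, -0.309 to 0.037 for *S100a11*, -0.064 to 0.1 for *S100a13* and -0.231 to 0.579 for *S100a14*. With TGF-β in the libraries labelled KO they were -0.044 to 0.071 for *S100a1*, -0.181 to 0.247 for *S100a6*, -0.124 to 0.075 for *S100a10* (0.034 with no filter), -0.191 to 0.067 for *S100a13*, -0.766 to 0.457 for *S100a14* and -0.177 to 0.219 for *S100a16*. For the interaction they were -0.295 to 0.026 for *S100a1*, -0.607 to 0.012 for *S100a6*, -0.207 to 0.057 for *S100a13* and -0.887 to 0.336 for *S100a14*.

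Over all genes, calls without TGF-β, between treated genotypes, and with TGF-β in control and KO-labelled cells were 238, 1959, 1194 and 889, against 797, 402, 483 and 929 with only the libraries compared, 756, 2823, 2021 and 1832 with no filter, 428, 2172, 1479 and 1237 with DESeq2 and 137, 2073, 1084 and 786 with limma-voom. Leaving out 1 library gave 41 to 393, 486 to 2788, 139 to 1479 and 136 to 1381. Interaction calls were 0, against 30 with DESeq2 and 211 with no filter. The replicate numbers of the labels did not pair the libraries (correlations of same-numbered deviations 0.098, -0.47, 0.30 and -0.0092), and the replicate block gave 150, 1490, 831 and 676 calls. With the block, *S100a16* with TGF-β in control cells had -0.68 (edgeR adjusted p 0.056) and *Anxa8* lost its untreated call (adjusted p 0.0542). *Ppfibp1* lost its call with TGF-β in KO-labelled cells (edgeR adjusted p 0.0567). With TGF-β in control cells the annexin calls fell from 3 to 1 and those of other EF-hand genes from 7 to 4. Between treated genotypes the annexin calls fell from 6 to 4 and those of cytoplasmic and nuclear partners from 5 to 4. Exchanged numbers in the treated KO-labelled libraries, chosen after seeing the data, gave 540, 2809, 1954 and 1550.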
